A study of Mus musculus with 13 samples.

Results

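The glucocorticoid receptor (GR) peaks described here lay within 1000 bp of a gene start and were found in both wild-type cells and cells with a zinc finger mutation of the receptor. They were chosen by position alone, from the authors' list of peaks shared by the genotypes, with the deposited signed distance from the gene start to the peak middle (negative upstream). Of 3533 shared peaks, 490 met this limit (13.9%, exact 95% interval 12.7 to 15.1%), at 476 genes. The 3 merged lists together held 24673 peaks. Each peak was 200 bp wide and carried a position and a gene but no height, score or p-value. Just inside the limit lay the peaks at Junb (-994 bp), 9330111N05Rik (-974 bp) and Akna (974 bp). Just outside lay those of Plk2 (1004 bp), Ptpn12 (1007 bp) and Noct (-1015 bp).

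GR was mapped by chromatin immunoprecipitation and sequencing in fibroblasts of male C57BL/6 mouse embryos taken at day 13.5 and cultured for 7 days. All 13 libraries used 1 antibody against GR, and the cells had been fixed with a protein crosslinker and then formaldehyde. Under 1 µM dexamethasone (Dex, a synthetic glucocorticoid; 16 h) plus LPS (lipopolysaccharide from bacterial cell walls; 100 ng/µl in the labels, 3 h) there were 3 wild-type libraries (GR wt/wt), 4 mutant libraries (GR Zn/Zn) and 2 knockout libraries (GRKO). Under Dex alone for 16 h there were 2 wild-type and 2 mutant libraries, with 1 peak list each. The Dex+LPS lists are merges over the libraries of a genotype, with peaks of knockout cells removed, so their peaks carry no spread between replicates. The depth behind the lists is unknown, and a peak missing from a genotype's list may lie under a threshold rather than be absent.

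GR is a nuclear receptor that moves to the nucleus when it binds a glucocorticoid. There it can bind palindromic glucocorticoid response elements (GREs) through its zinc fingers, or be held at chromatin by other factors such as AP-1 and NF-kB. Most GR sites known from fibroblasts and macrophages lie far from gene starts. LPS acts through Toll-like receptors to switch on NF-kB, AP-1, MAP kinase and interferon response genes, many of which glucocorticoids restrain.

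Stretches of 6 of these peaks follow, from genes of listed pathways whose upstream part held a match to a searched motif. Of the list genes' peaks, 13 had at least 50 bases upstream of the gene start within a RefSeq promoter window (250 bases before to 50 after a start, GRCm38.p6), and 6 of these held a match to a GRE, AP-1, CRE, NF-kB, interferon or serum response motif. Each is the part of the peak upstream of the start, printed 5′ to 3′ on the strand of the gene, and capitals mark the matches. They are shown because they are the sites at which the listed genes, the printed letters and the peak positions can be read together. Having been chosen for a match, they are examples only. Over all RefSeq windows, single shares were 6.85% (GRE core), 7.81% (AP-1), 1.79% (CRE), 1.25% (NF-kB), 10.6% (interferon) and 1.63% (serum response). At shared gene-start peaks they were 2.24, 5.97, 5.22, 2.74, 11.9 and 2.74% in this order. Whether 6 of 13 differs from other promoter stretches of such lengths was not tested. Dusp6 (chr10:99262981-99263179, plus strand) encodes a phosphatase of ERK kinases and holds a GRE core (ACAACCTGT), an NF-kB match (GGAAATTCC) and an interferon element match (TTTCCGTTT). Tnfaip3 (chr10:19015411-19015485, minus strand) encodes A20, an inhibitor of NF-kB signalling, and holds an NF-kB match. Zfp36 (chr7:28379229-28379327, minus strand) encodes tristetraprolin, which destabilises cytokine mRNAs, and holds a CArG box of the serum response factor. Il6 (chr5:30012998-30013113, plus strand) encodes the cytokine interleukin 6 and holds an NF-kB match. Tlr2 (chr3:83841637-83841836, minus strand), a Toll-like receptor gene, and Rpl4 (chr9:64173315-64173386, plus strand), a ribosomal protein gene, each hold an interferon element match.
Dusp6: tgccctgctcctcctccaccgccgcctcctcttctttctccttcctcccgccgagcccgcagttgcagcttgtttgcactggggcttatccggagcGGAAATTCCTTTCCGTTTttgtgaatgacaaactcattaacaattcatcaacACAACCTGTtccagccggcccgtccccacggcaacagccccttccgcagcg
Tnfaip3: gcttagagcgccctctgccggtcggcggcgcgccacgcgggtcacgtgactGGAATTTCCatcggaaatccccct
Zfp36: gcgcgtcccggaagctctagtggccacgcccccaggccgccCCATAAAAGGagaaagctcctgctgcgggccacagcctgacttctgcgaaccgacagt
Il6: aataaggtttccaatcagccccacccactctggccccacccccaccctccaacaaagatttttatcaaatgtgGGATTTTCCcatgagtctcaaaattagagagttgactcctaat
Tlr2: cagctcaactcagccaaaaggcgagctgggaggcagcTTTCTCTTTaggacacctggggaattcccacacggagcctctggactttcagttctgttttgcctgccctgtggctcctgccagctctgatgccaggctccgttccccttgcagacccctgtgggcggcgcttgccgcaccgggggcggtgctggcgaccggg
Rpl4: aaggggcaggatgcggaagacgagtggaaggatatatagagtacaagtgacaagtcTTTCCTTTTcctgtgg

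The peaks clustered just inside the genes. Their median distance was 98.5 bp past the start, with quartiles at -102 and 252 bp, and 292 (59.6%, 55.1 to 64.0%) had their middle within 250 bp of it. Of the 490 peaks, 175 (35.7%, 31.5 to 40.1%) had their middle upstream. The annotation placed 121 across the start, 230 wholly inside the gene, 124 wholly upstream, 10 across the gene end and 5 beyond it. The limit itself keeps every peak near a start, so only the arrangement within it is described.

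**Figure D1:**
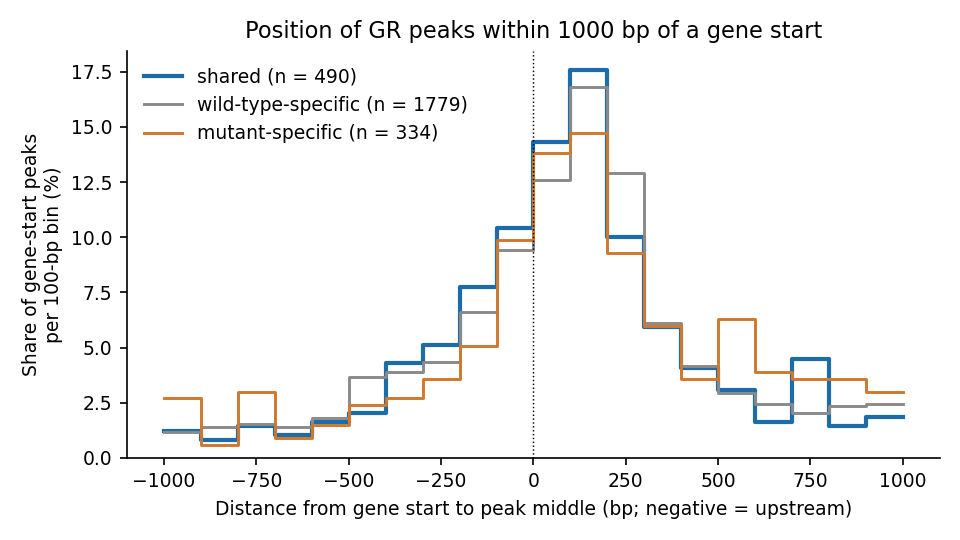
Share of peaks (%) per 100-bp bin of the distance from gene start to peak middle (bp) for the 490 shared, 1779 wild-type-specific and 334 mutant-specific peaks within 1000 bp of a start. All 3 lines peak just downstream of the start, with medians of 98.5, 112 and 114 bp.

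Peaks specific to 1 genotype were arranged alike around gene starts. Of 1779 wild-type-specific peaks, 35.2% (33.0 to 37.5%) had their middle upstream, and 55.9% (53.5 to 58.2%) were within 250 bp. Of 334 mutant-specific peaks, the shares were 32.3% (27.3 to 37.6%) and 50% (44.5 to 55.5%). Each of these intervals overlapped that of the shared peaks. The share of a list that lay near a start differed more, at 9.39% (8.97 to 9.81%) of the 18953 wild-type-specific and 15.3% (13.8 to 16.8%) of the 2187 mutant-specific peaks, against 13.9% of the shared ones. The intervals cover counting error only, and no test was made across peaks, which are not replicates.

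The gene end was the exception. Peaks across or beyond a gene end made up 3.06% (1.72 to 5.00%) of them, against 0.618% (0.309 to 1.10%) of the wild-type-specific and 0.898% (0.186 to 2.60%) of the mutant-specific ones near starts. The interval of the shared peaks lay above the wild-type-specific one and overlapped the mutant-specific one. Of these 15 peaks, 11 lay at histone genes. Replication-dependent histone genes are short, lie in clusters and end in a stem-loop instead of a poly(A) tail. The family was chosen after the peaks had been seen, as coding genes with a symbol or synonym of the Hist form. It had 20 shared gene-start peaks at 20 of its 67 coding genes in the gene table (29.9%). Against these stood 5 genes with a wild-type-specific and 2 with a mutant-specific peak near the start. Shared gene-start peaks at H2afx (111 bp) and H2afj (932 bp), histone genes without such a name, are not among the 20.

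The histone peaks sat late in the gene. Their median distance was 376 bp, from 36 bp at Hist1h3b to 641 bp at Hist1h3c, in genes with a median length of 482 bp. None was upstream of its start, and 14 of 20 had their middle within 200 bp of the gene end. The peaks of Hist1h3c, Hist1h2ag and Hist1h3i lay wholly beyond the end, with their middles 161, 123 and 120 bp past it. The other 470 shared peaks, those at H2afx and H2afj among them, had a median distance of 88.0 bp. Of these 470, 4 reached a gene end, all at genes of 1000 bp or less. Only 8 of those 470 lay at genes that short. Histone genes of a class are near-identical, and the treatment of reads that match several copies was not given in the sources used, so single copies are uncertain. The part of this in the peak positions was not tested.

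**Figure D2:**
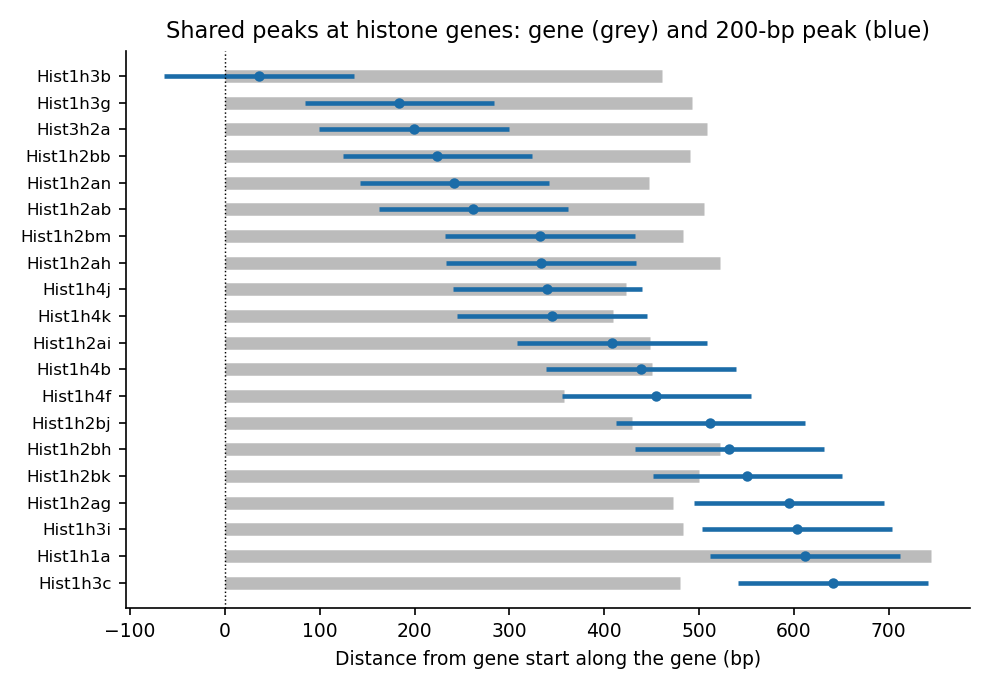
Shared peaks at 20 histone genes, along the distance from the gene start in the direction of transcription (bp). Grey bars are the genes, blue lines the 200-bp peaks and blue points their middles, and 14 of the 20 middles lie within 200 bp of the gene end.

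The genes were mostly protein-coding, like those of the other gene-start peaks. Of 476 genes, 437 were coding (91.8%) and 35 were long non-coding RNAs (7.35%), against 85.0% and 12.5% of the 2013 genes assigned the other shared peaks. Genes with a wild-type-specific or mutant-specific gene-start peak were coding in 91.5% and 92.2%. The median span was 13.8 kb, against 20.8 and 15.3 kb for those genotype-specific sets and 46.2 kb for the genes of the other shared peaks. Chromosome 13 had most peaks for its genes (39, or 4.70 per 100 coding genes), with 19 of the 20 histone peaks on it. Chromosome X had 3 (0.311 per 100). Chromosomes 10 to 14 held 30.2% (26.2 to 34.5%) of the gene-start shared peaks and 38.3% (36.5 to 40.0%) of the other shared peaks, against 25.1% (23.1 to 27.2%) of the wild-type-specific and 21.9% (17.5 to 26.7%) of the mutant-specific gene-start peaks. The cause of this excess, and the part of the histone peaks in it, were not tested. Leaving out these chromosomes was tried only for the number of peaks, their position, the Dex overlap and the motif shares of promoter windows. Such a result is given below without them where that moved its value by over 1.5 times. The gene lists and families, other peaks at the same genes, neighbouring peaks and base composition were not redone without them.

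A shared gene-start peak fell on 437 of the 21900 coding genes of the gene table (2.00%), a wild-type-specific one on 6.99% and a mutant-specific one on 1.30%. Lists of known pathway genes were read against these shares. The lists were drawn up with earlier results of these data known, so their counts are descriptions. Across the 9 lists other than cell type markers, 48 of 281 gene symbols (17.1%) had a shared gene-start peak.

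Among 40 known glucocorticoid targets, 9 (22.5%, 10.8 to 38.5%) had a shared gene-start peak, 9 a wild-type-specific and 2 a mutant-specific one. The 9 were Arid5a, Bcl6, Cebpd, Dusp6, Gadd45b, Klf4, Klf6, Tnfaip3 and Zfp36. At Zfp36 the peak was centred on the start (0 bp), and at Cebpd, a transcription factor of the C/EBP family, it lay at 6 bp as the gene's only Dex+LPS peak. Gadd45b, a stress response gene, had a peak on each side of the start (-409 and 97 bp). Klf6, a zinc finger transcription factor, had its gene-start peak at -301 bp among 11 shared and 6 wild-type-specific peaks. Dusp6 (-151 bp) had 9 wild-type-specific peaks, 5 shared ones and no mutant-specific one. The remaining gene-start peaks lay at -52 bp for the transcriptional repressor Bcl6, 123 bp for the RNA-binding protein gene Arid5a and -275 bp for Klf4.

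Of 49 inflammatory and NF-kB pathway genes, 10 (20.4%, 10.2 to 34.3%) had a shared gene-start peak, against 5 with a wild-type-specific and 7 with a mutant-specific one. They span the pathway from receptor to feedback. At the receptor gene Tlr2 the peak lay at -128 bp. Of the NF-kB subunits, Rel had it at -98 bp, Relb at 12 bp and Nfkb1 at -133 bp. The NF-kB inhibitor Tnfaip3 (24 and 944 bp), the atypical IkB protein gene Nfkbiz (-175 bp) and the apoptosis inhibitor Birc3 (136 bp) also had one. Among effectors were Il6 (-16 bp), the mitochondrial superoxide dismutase Sod2 (171 bp) and Tnfaip2 (201 bp). Most of these genes had peaks of the other lists too. In the order wild-type-specific, shared, mutant-specific, Il6 had 3, 3 and 4 peaks, Tnfaip3 had 4, 5 and 6, and Nfkbiz had 5, 4 and 5. Sod2 had no wild-type-specific peak and 5 mutant-specific ones, and Relb had its shared peak alone.

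Interferon response genes had 8 of 34 with a shared gene-start peak (23.5%, 10.7 to 41.2%), 4 with a wild-type-specific and 8 with a mutant-specific one. They were the transcription factors Irf1 (258 bp), Irf9 (233 bp) and Stat3 (-300 bp), the RNA sensor Ddx58 (547 bp), the ISG15 protease Usp18 (-184 bp), and the antiviral genes Cmpk2 (207 bp), Oasl2 (728 bp) and Ifit2 (310 bp). Of the 8, only Stat3 had a wild-type-specific peak assigned to it at any distance. Usp18, Cmpk2 and Oasl2 each had 4 mutant-specific peaks, and Irf1 and Ifit2 had 2 each. Over all 476 genes, 27 (5.67%, 3.77 to 8.15%) had a mutant-specific but no wild-type-specific peak, against 41 of the 1904 other genes with a shared peak (2.15%, 1.55 to 2.91%).

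AP-1 and immediate early genes, which answer growth and stress signals within minutes, had 6 of 27 (22.2%, 8.62 to 42.3%), with 8 wild-type-specific and 3 mutant-specific. Jun had its peak at -374 bp, Fos at 45 bp and Junb at -994 bp, the last as its gene's only Dex+LPS peak. Klf2 (636 bp), Ier5 (284 bp) and the antiproliferative gene Btg1 (399 bp) were the others. Btg1 had 7 shared peaks beside 8 wild-type-specific and 4 mutant-specific ones.

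Among actin cytoskeleton, growth factor feedback and clock genes, more had a wild-type-specific than a shared gene-start peak, as over all coding genes (6.99 against 2.00%). Of 30 actin cytoskeleton genes, 13 (43.3%, 25.5 to 62.6%) had a wild-type-specific gene-start peak and 7 a mutant-specific one, against 3 (10.0%, 2.11 to 26.5%) with a shared one, at the actin-binding protein genes Cfl1 (409 bp), Pfn1 (596 bp) and Tagln2 (710 bp). Growth factor and MAP kinase feedback genes had 3 of 30 shared (Dusp6, the signalling inhibitor Spry2 at -757 bp, and Vegfa at 55 bp). In that list 10 genes had a wild-type-specific and 1 a mutant-specific gene-start peak. Of 19 circadian clock genes, only the repressor Nfil3 (-711 bp) had a shared gene-start peak, whereas 5 had a wild-type-specific and 0 a mutant-specific one. Intervals of the shared and wild-type-specific shares overlapped in each of these 3 lists.

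Of 36 symbols of extracellular matrix and adhesion genes, 4 had a shared gene-start peak (11.1%, 3.11 to 26.1%). The symbols count Ccn1 and Ccn2 again under their older names Cyr61 and Ctgf, so the share over genes is slightly higher. Those with a shared one were the collagen gene Col1a2 (364 bp), fibronectin Fn1 (58 bp), the integrin Itgb1 (-92 bp) and the metalloproteinase inhibitor Timp1 (-16 bp). In this list 8 genes had a wild-type-specific and 5 a mutant-specific gene-start peak. Of 25 ribosomal and housekeeping genes, 6 (24.0%, 9.36 to 45.1%) had a shared one: Rpl4 (27 bp), Rps6 (-15 bp), the chaperone Hsp90ab1 (153 bp), the tubulin Tuba1b (194 bp), ubiquitin Ubb (401 bp) and the RNA helicase Eif4a1 (701 bp). In the same list 11 had a wild-type-specific and 5 a mutant-specific one. Of 12 fibroblast markers, Col1a2, Prrx1 (746 bp) and Twist1 (177 bp) had a shared gene-start peak. None of 32 markers of macrophages, endothelium, muscle, neurons and epithelium had one, which allows a share of up to 9.38% (3 counts of the total). That limit holds the 2.00% over all coding genes, so the absence cannot be told from that share. Wild-type-specific gene-start peaks also lay at 4 fibroblast markers and at none of the 32 others, and a mutant-specific one lay at 1 macrophage marker.

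**Figure D3:**
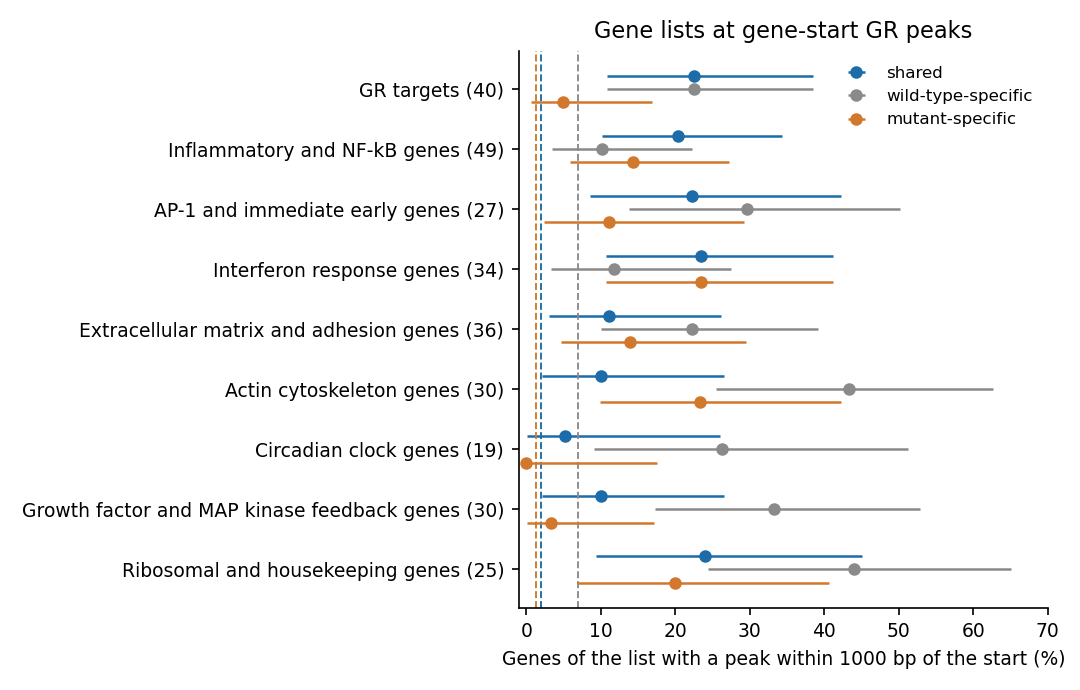
Share of each list's genes (%, number of gene symbols in brackets) with a shared, wild-type-specific or mutant-specific peak within 1000 bp of the start, with exact 95% intervals. Dashed lines mark the shares over all coding genes (2.00, 6.99 and 1.30%); among these 9 lists, which leave out the cell type markers, the shared share was highest for ribosomal and housekeeping genes (24.0%) and the wild-type-specific share for that list and actin cytoskeleton genes (44.0 and 43.3%).

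By the authors' gene assignment, genes with a shared gene-start peak had fewer other peaks than the other genes of the shared list (median 2.00 against 4.00 peaks in all). Of the 476 genes, 238 (50%, 45.4 to 54.6%) also had a wild-type-specific peak, 82 (17.2%, 13.9 to 20.9%) a mutant-specific one and 119 (25%, 21.2 to 29.1%) a further shared one. For 190 (39.9%, 35.5 to 44.5%) it was the only Dex+LPS peak. Among the 1904 other genes with a shared peak, 81.1% (79.3 to 82.8%) had a wild-type-specific peak, 24.6% (22.7 to 26.6%) a mutant-specific one, 28.3% (26.3 to 30.4%) a further shared one, and 15.2% (13.6 to 16.9%) had no other peak. Longer genes collect more peaks in such an assignment, and the median spans differed (13.8 against 46.2 kb); the part of span in the difference was not tested. Counted by distance instead of by gene, 42.2% (37.8 to 46.8%) of the 490 peaks had a wild-type-specific peak within 10 kb, against 49.5% (47.7 to 51.3%) of the 3043 other shared peaks. For mutant-specific peaks the order turned, with 18.4% (15.0 to 22.1%) against 13.4% (12.2 to 14.6%). A further shared peak lay within 10 kb of 24.9% and 24.3%. Within 1 kb the gene-start peaks were slightly above the others, with overlapping intervals, at 10.8% (8.21 to 13.9%) against 9.04% (8.04 to 10.1%) for wild-type-specific, 6.73% (4.68 to 9.33%) against 4.67% (3.94 to 5.48%) for shared and 4.29% (2.67 to 6.48%) against 3.12% (2.53 to 3.80%) for mutant-specific neighbours.

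**Figure D4:**
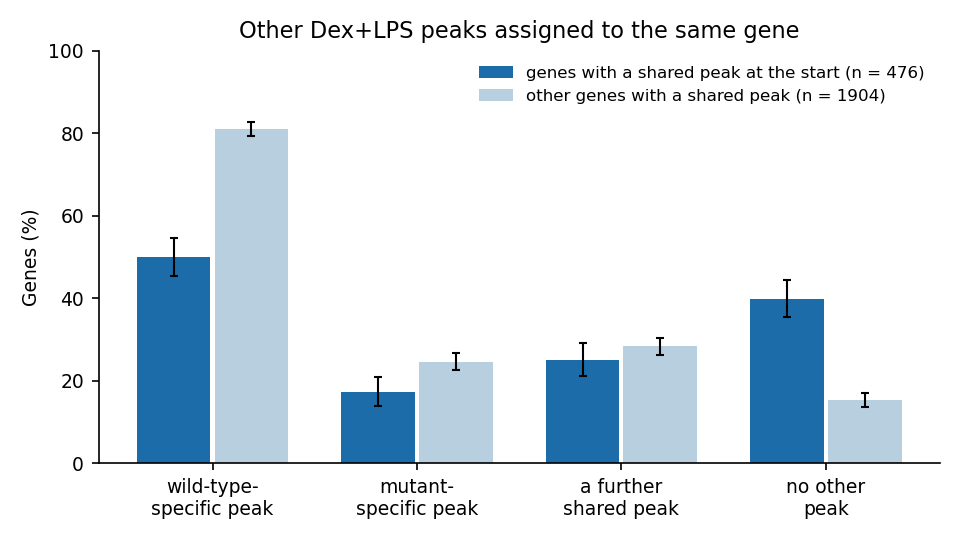
Share of genes (%) that also had a peak of each other kind, for the 476 genes with a shared peak at the start (dark) and the 1904 other genes with a shared peak (light), with exact 95% intervals. Wild-type-specific peaks were assigned to 50% of the former and 81.1% of the latter.

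A few genes carried many peaks. Utrn, the gene of the dystrophin relative utrophin, had 17 wild-type-specific peaks, 4 shared ones and 1 mutant-specific one over 487 kb, and Klf4 had 13, 4 and 1 at a gene of 5.34 kb. Arrdc3, an arrestin-domain gene, had 11, 3 and 3, and the kinase gene Plk2 had 9, 5 and 2. Btg1, A630001O12Rik, Klf6, Gm14005, Tbl1xr1 and Parva completed the 10 with most, at 15 to 19 peaks each. At 14 genes the start had 2 shared peaks, spaced 492 to 1382 bp apart (median 682 bp), and 9 of these genes had 1 on each side of the start. They were Alkbh5, Cox18, Gadd45b, Gcn1l1, Hivep1, Mir7671, Phldb1, Ppm1a, Ptma, Syncrip, Tead1, Tnfaip3, Tor1aip2 and Utrn.

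Under Dex alone, none of the 490 positions was under a peak. Each Dex list came from 1 library, whereas the Dex+LPS lists were merged over several. The share of all 24673 Dex+LPS peaks under a Dex peak is not given here. The absence is therefore not read as particular to these positions. Each wild-type library (412 and 854 peaks) and each mutant library (53 and 60 peaks) overlapped 0 of 490, which allows a share of up to 0.612% by the limit of 3 counts of the total, or 0.750% by the exact interval. The genotypes, with 2 libraries each, gave p = 1.00 in a two-sided exact permutation test. With 0 in every library the test could give no other value, so nothing is read from it. Where counts differ, its smallest possible p with these libraries is 0.333. The labels do not say whether the libraries of a genotype were separate cultures, so differences between them may be technical. Gene-start peaks specific to 1 genotype were rarely overlapped too. For wild-type-specific ones it was 3 and 2 of 1779 positions (0.169 and 0.112%) in the wild-type libraries, shares within the limits for the 490. In the mutant libraries it was 0, and mutant-specific ones had 0 of 334 in every library. The other shared peaks were overlapped at 31 (1.02%, 0.693 to 1.44%) and 85 (2.79%, 2.24 to 3.44%) of 3043 positions in the wild-type libraries and at 0 and 1 in the mutant libraries. Without chromosomes 10 to 14 the wild-type values fell to 5 and 7 of 1879 (0.266 and 0.373%), and 0 of the remaining 342 gene-start positions were overlapped, which allows up to 0.877% by the same limit of 3 counts, or 1.07% by the exact interval. At this number of Dex peaks, a difference between gene-start and other shared peaks was not detectable on the remaining chromosomes.

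Dex-alone peaks near starts were rare in any case. They numbered 3, 3, 1 and 1 in wild-type libraries 1 and 2 and mutant libraries 1 and 2. In the wild-type libraries they included Fkbp5, the GR co-chaperone gene and a classical glucocorticoid target, whose overlapped Dex+LPS peak at -486 bp (chr17:28517911-28518110) was wild-type-specific. The others overlapping wild-type-specific gene-start peaks were A230028O05Rik (-271 bp, both libraries) and the bile acid and steroid sulfate transporter gene Slc10a6 (-99 bp, library 1 only). The nearest Dex peak to any of the 490 positions was 22.5 and 6.68 kb away in the wild-type and 41.4 and 41.3 kb in the mutant libraries. Some of the 476 genes had a Dex peak elsewhere, 5 in wild-type library 1 (Arrdc3, Gli3, Klf6, Ptpn12 and Utrn), 8 in wild-type library 2, 1 in mutant library 1 (Cdh11) and 0 in mutant library 2.

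The promoters at these peaks were rich in CpG. Letters were read from 402 distinct RefSeq promoter windows of 300 bases. Each was that of the RefSeq start nearest to a shared peak, within 1000 bp and of whichever gene, so a match need not lie within the peak. The median GC content of these windows was 62.7% and their CpG observed-over-expected ratio 0.827. Of them, 67.9% (63.1 to 72.5%) were CpG-rich (at least 55% GC and a ratio of at least 0.6). The windows at wild-type-specific gene-start peaks were alike at 63.0%, 0.821 and 70.8% (68.3 to 73.2%), those at mutant-specific ones had 61.3%, 0.782 and 61.0% (54.6 to 67.0%), and all 32851 windows had 52.7%, 0.384 and 30.3%. Starts on both strands within 1000 bp were found for 18.5% (14.9 to 22.6%) of the shared peaks with a RefSeq start, for 18.7% and 19.7% of the genotype-specific ones and for 15.1% of all RefSeq starts.

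GRE letters were less common than over all promoters. The core ACANNNTGT, searched on both strands like every motif here, stood in 9 of 402 windows (2.24%, 1.03 to 4.21%), against 4.01% (3.03 to 5.21%) of windows at wild-type-specific peaks, 1.99% at mutant-specific ones and 6.85% (6.58 to 7.12%) of all windows. One arm of the palindrome, AGAACA, stood in 11.2%, 11.2%, 9.96% and 19.0% of these sets. Neither pattern holds a CG pair, and the part of base composition was not tested. Within whole peaks covered by windows the core stood in 0 of 60 shared peaks (exact interval up to 5.96%) and in 12 of 181 wild-type-specific ones (6.63%, 3.47 to 11.3%). It stood in 0 of 27 mutant-specific ones (up to 12.8%), and the matching share at all RefSeq starts was 4.51% (4.29 to 4.74%). The shared interval held that share and overlapped the wild-type-specific interval. The Dusp6 peak, with the core printed above, was covered but for 1 base and is not among the 60. Without chromosomes 10 to 14 the share of windows was 1.48%.

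Motifs of CpG-rich promoters were frequent in all 3 sets. The GC box GGGCGGG stood in 54.5% of the shared windows, 51.7% of the wild-type-specific, 48.6% of the mutant-specific and 25.6% of all windows, and the ETS motif CCGGAAGT in 6.97%, 9.14%, 7.97% and 3.89%. The NRF1 motif GCATGCGC stood in 6.47%, 5.65%, 4.78% and 2.71%, and the cAMP response element TGACGTCA in 5.22% (3.26 to 7.87%), 3.87%, 4.38% and 1.79%. Shares of the CCAAT box lay between 33.1% and 37.4% in all 4 sets.

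Motifs of NF-kB, AP-1 and further factors each stood in at most 15.9% of the windows of any set. The NF-kB pattern GGANTTTCC stood in 2.74% (1.37 to 4.84%) of the shared windows, 1.56% of the wild-type-specific, 3.98% of the mutant-specific and 1.25% of all windows, and in 1.48% of the shared ones without chromosomes 10 to 14. It gave the Il6, Tnfaip3 and Dusp6 matches printed above. The AP-1 motif TGANTCA stood in 5.97%, 7.21%, 8.37% and 7.81%, the STAT motif TTCNNNGAA in 7.46%, 5.80%, 9.56% and 8.30%, and the CArG box in 2.74%, 1.49%, 1.99% and 1.63%. The C/EBP pattern TTGCNNAA stood in 9.20%, 6.69%, 8.76% and 10.8%, and the TEAD motif CATTCC in 9.45%, 13.5%, 15.9% and 14.7%.

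Against the windows at wild-type-specific peaks, 2 motifs stood apart in their intervals. The interferon element core AAANNGAAA was in 11.9% (8.94 to 15.5%) of the shared windows, 6.84% (5.55 to 8.32%) of the wild-type-specific, 11.6% of the mutant-specific and 10.6% of all windows. The TATA box TATAAA was in 12.7% (9.59 to 16.3%), 6.91% (5.62 to 8.40%), 14.3% and 13.6%. Without the 20 windows at histone genes these shares were 10.7% (7.81 to 14.3%) and 10.5% (7.59 to 14%), so that both intervals overlapped the wild-type-specific ones and neither motif stood apart. Without chromosomes 10 to 14 the interferon core was at 12.2% (8.53 to 16.7%) and the TATA box at 8.12% (5.16 to 12%), the latter inside the wild-type-specific interval. Motifs can share letters, as the arm AGAACA ends with the letters that open the GRE core, and at Dusp6 the NF-kB and interferon matches abut. A match is a string of letters, not a measured site.

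**Figure D5:**
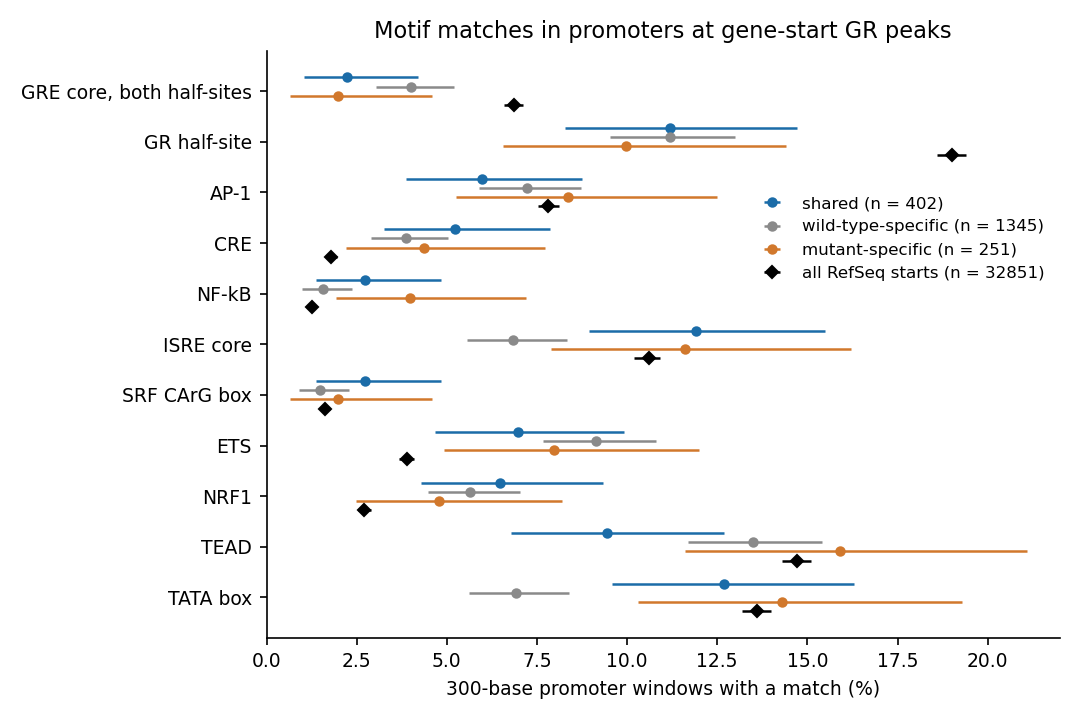
Share of 300-base promoter windows (%) with a match to each motif, with exact 95% intervals. Windows are those of the RefSeq starts nearest to shared (402 windows), wild-type-specific (1345) and mutant-specific (251) gene-start peaks and of all RefSeq starts (32851, black diamonds). The GRE core was at 2.24% of shared and 6.85% of all windows, and the TATA box at 12.7% of shared and 6.91% of wild-type-specific windows.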

How the data were processed

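GR was mapped by ChIP-seq in 13 libraries. The deposited values are positions in bp and distances, with no count, score or p-value per peak. Build mm10 and the tools MACS2 2.1.0, BWA 0.7.13 and Picard 1.119 are named in the submitters' processing notes. Per the file names, the authors merged the Dex+LPS libraries, removed knockout peaks and set a false discovery rate threshold for the Dex lists. The methods of merging and annotation were not given in the sources used here. For all 24673 peaks, the authors' distance was recomputed and matched within 0.500 bp.

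Peaks were taken within 1000 bp of the deposited gene start. Overlap needed at least 1 bp. Gene identifiers were matched to a GRCm38 gene table (100% for shared peaks), and 84.1% of shared gene-start identifiers had a RefSeq promoter window. Sequence of whole peaks had been planned, but the windows served as the main sequence, and whole covered peaks became an alternative added after seeing the data. Chromosome 18 was not used for sequence. Shares carry exact Clopper-Pearson 95% intervals, which cover counting error only. Depth is unknown. The peaks, the 15 gene lists, the motifs and the tests were chosen with earlier results of these data known. Named are list genes with such a peak, genes with several, those with most Dex+LPS peaks, peaks beside the distance limit and positions with a Dex-alone overlap; the genotype-specific peaks named with one, the genes with a Dex peak elsewhere and the histone and other families were named after their values were seen. Alternatives varied the distance limit, overlap, chromosomes, libraries and sequence. The code was tested on simulated data, with Python 3.11.15, numpy 2.4.6, pandas 2.3.3, scipy 1.17.1, matplotlib 3.10.9 and bedtools 2.31.1.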

Additional observations from a re-analysis of the deposited data

How the results depend on the processing

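Of 81 alternatives, 75 kept a share within its interval and a count within 1.5 times. Some of the 81 could hardly move a value. Recomputed peak middles gave the same 490 peaks and 175 upstream, since the distances had matched within 0.500 bp. No gene with a shared gene-start peak spanned over 1 Mb, so that filter removed none. Most motif alternatives reused many of the same windows, so staying within an interval says little about stability. A further 8 settings for the Dex overlap used fewer peaks, libraries or bases, and could only give 0 again, so they say nothing about stability. The number of peaks ran from 342 without chromosomes 10 to 14 to 588 with a limit of 2000 bp. The GRE core share of 2.24% became 0 in the 60 covered whole peaks, 0 in the central 100 bp of 117 covered peaks, and 0.746% for the full element with at most 2 mismatches in the windows; the first pair read less sequence by construction, and the last pattern asks for more letters. A wild-type-specific peak stood within 10 kb of 42.2% of the peaks instead of at the gene of 50%, since distance replaced the gene assignment. Those 8 settings include leaving out each Dex library in turn, which gave 0 to 0 peaks. With the replicate block, also among the 8, the paired difference between same-numbered wild-type and mutant Dex libraries was 0; nothing says that these numbers pair the libraries. A limit of 2000 bp gave 1 overlapped peak in each wild-type library and none in the mutant ones (exact permutation p = 0.333, the smallest possible). Of 56 alternatives for single motifs other than the GRE core, 55 stayed within the interval, and the exception was the TATA box (8.12%).

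Merged lists of unknown depth limit all comparisons between genotypes: how many peaks of 1 list fell just under the threshold in the other was not tested, and no spread between Dex+LPS libraries was given. Motif counts cover the 402 windows on the chromosomes read, mostly not the peaks themselves.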

Other observations

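Beyond histones, other families of genes for the making of RNA and protein had shared gene-start peaks. They were read from gene symbols after the peaks had been seen, so the counts are descriptions and sit beside the shares of all coding genes with such a peak (2.00% shared, 6.99% wild-type-specific and 1.30% mutant-specific). Of 11 SR splicing factor genes, 5 had one (Srsf1, Srsf2, Srsf3, Srsf6 and Srsf7), against 3 with a wild-type-specific and 0 with a mutant-specific gene-start peak. Of 56 translation initiation factor genes, 10 had one (17.9%), among them Eif4g1 and Eif4g2, scaffold proteins of initiation, with 8 wild-type-specific and 0 mutant-specific. Of 80 ribosomal protein genes, 13 had one (16.2%), with 26 wild-type-specific and 6 mutant-specific. Of 21 hnRNP genes, RNA packaging proteins, 4 had one, with 7 wild-type-specific and 0 mutant-specific.

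The Zfp36 and Krüppel-like factor families of regulators were present too. Of the 4 Zfp36 family genes, which encode mRNA-destabilising proteins, 3 had a shared gene-start peak (Zfp36, Zfp36l1 and Zfp36l2), 1 a wild-type-specific and 2 a mutant-specific one. Of 17 Krüppel-like factor genes, 5 had one (Klf2, Klf3, Klf4, Klf6 and Klf7), as did 5 for wild-type-specific and 0 for mutant-specific peaks. No list gives the level of any of these RNAs.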
